A study of Arabidopsis thaliana with 16 samples.

Results

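ENAP1 was mapped by chromatin immunoprecipitation and sequencing (ChIP-seq) in whole seedlings of Arabidopsis thaliana accession Col-0, the usual wild type, and the peak sets from air and from ethylene were compared. The Col-0 air set held 7852 regions and the Col-0 ethylene set 5137, 12989 of the 20937 regions in the 4 labelled sets of the study, whose other 2 sets came from the ein2 mutant. All were dark-grown whole seedlings, 3 days old and kept at 24 C, that then spent 4 hours either in hydrocarbon-free air or in the same air with 10 ppm ethylene. Each of the 2 conditions had 2 ChIP samples and 2 input samples, and both ChIP samples of a condition share 1 deposited peak set, so no spread between replicates can be given and no difference between the conditions was tested. The antibody was raised against green fluorescent protein. The labels name no tagged ENAP1 construct, promoter or number of lines, and a ChIP from plants without the tag was not used here, so signal from the antibody alone cannot be told apart from ENAP1. The 2 air ChIP libraries carry plain numbers in the name of their set and the 2 ethylene ones numbers with the letter C. Whether they were handled apart is not known, and such handling and ethylene cannot be told apart. The files hold no read counts, so depth is unknown, and intervals below are Wilson 95% intervals that cover counting error only.

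Ethylene is a gas hormone of plants. Its receptors keep the kinase CTR1 active in air, CTR1 holds back the membrane protein EIN2, and when the gas is perceived a part of EIN2 moves to the nucleus, where the transcription factors EIN3 and EIL1 act. ENAP1 is a nuclear protein of the trihelix type that interacts with EIN2, and it has been tied to histone acetylation in the ethylene response. In dark-grown seedlings ethylene gives the triple response, in which the hypocotyl shortens and thickens and the apical hook tightens.

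Most ENAP1 regions seen in ethylene were already present in air, whereas a large share of the air regions was not seen in ethylene. Among Col-0 air regions, 58.2% overlapped an ethylene region by at least 1 bp (4567 regions, interval 57.1 to 59.3) and are called kept below. The other 3285 are called lost. Of the Col-0 ethylene regions, 88.2% overlapped an air region (4532 regions, interval 87.3 to 89.1), and the remaining 605 are called gained. These words describe 2 peak lists, not a change proven at a site. The lists end at different scores: the lowest −log10 q was 13.4 in air and 10.8 in ethylene, so the ethylene list ran to lower scores and was still the shorter one. These scores, like fold, depend on the depth of their set, which is unknown, so they do not rank sites between the sets. Of the gained regions, 310 (51.2%) had a −log10 q below the lowest of the air set, against 650 (14.3%) of the shared ethylene regions.

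Kept regions were the stronger ones by −log10 p, and less evenly so by fold. The median fold enrichment over local background, the authors' value for each peak, was 4.77 in kept and 4.01 in lost regions of the air set, and the median width was 346 and 288 bp. Within the ethylene set the median fold was 3.91 in shared and 3.15 in gained regions, with median widths of 330 and 252 bp. Fold was read within 1 set at a time, because it depends on the depth and background of that set. Ranked by −log10 p, the lowest decile of air regions was kept in 16.9% of cases and the highest decile in 99.4%. Ranked by fold, the lowest decile of air regions was kept in 52.5% of cases, the next 5 deciles in 42.2% to 50.3% and the highest in 93.2%. In the 2 highest deciles of ethylene regions by −log10 p, 514 of 514 and 513 of 513 overlapped an air region, so no gained region was among the strongest of its set.

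The sets were also compared with equal numbers of regions, which by construction leaves nearly equal numbers without a partner. The 5137 air regions of highest −log10 p shared 76.1% (interval 74.9 to 77.3) with the 5137 ethylene regions, which left 1227 air regions and 1238 ethylene regions without a partner. In the other direction 75.9% of the ethylene regions were shared (74.7 to 77.1). Of the 1238 ethylene regions without a partner at equal numbers, 633 (51.1%) lay in an air region below the rank used, and the other 605 lay in none. Agreement at the very top was lower than in the middle: the 500 highest of each set shared 63.2%, the 1000 highest 70.4% and the 3000 highest 77.4%. Nearly all of these top regions were present in the other list at a lower rank, since 499 of the 500 highest air regions were in the whole ethylene set and all 500 highest ethylene regions were in the whole air set.

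**Figure D1:**
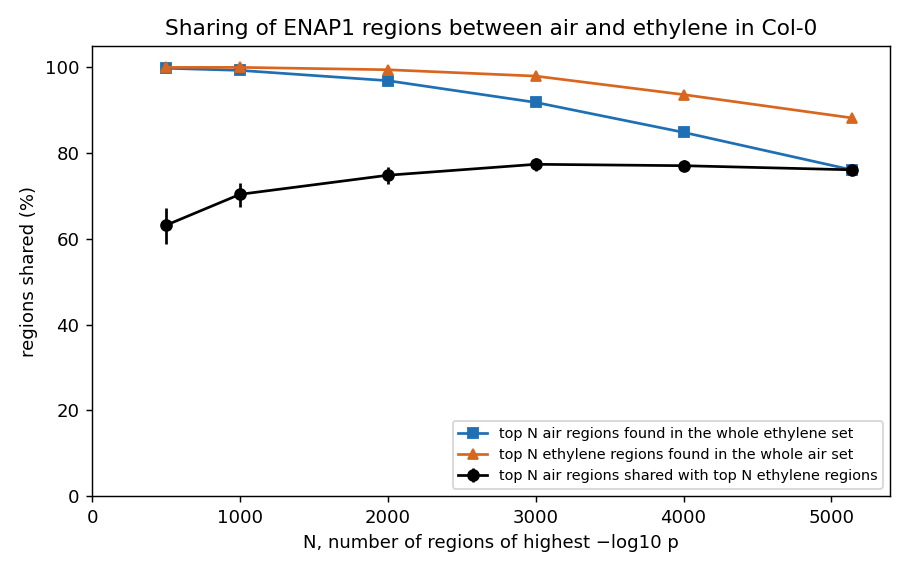
Share of ENAP1 regions (vertical axis, percent) found in the other condition, against the number N of regions of highest −log10 p taken from a set (horizontal axis). Black points with Wilson 95% bars are top N air regions overlapping top N ethylene regions and run from 63.2% at 500 to 76.1% at 5137; blue squares and orange triangles are top N regions found in the whole other set, which fall from 99.8% to 76.1% for air and from 100% to 88.2% for ethylene.

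The strongest kept regions lay at genes of varied function. The first was inside APD1 (AT2G38185, aberrant pollen development 1 in the gene table), at 15999772 to 16000136 of chromosome 2, positions being those of TAIR10 in the peak files. Its fold was 19.9 in air and 10.7 in ethylene, the summits were at 15999944 and 15999952, and it was 365 bp wide in both sets. At RABC2A (AT5G03530), a small GTPase of the Rab family, a region at 887970 to 888342 of chromosome 5 had a fold of 16.8 in air and an overlapping one had 9.72 in ethylene. At RAD9 (AT3G05480), a DNA damage checkpoint gene, the folds were 16.7 and 9.92, and the summits, 1590003 and 1590002 on chromosome 3, were neighbouring bases. AT5G02220, the cyclin-dependent kinase inhibitor gene SMR4, had folds of 15.5 and 7.40. PHB2 (AT1G03860), which encodes a prohibitin of the mitochondrial membrane, had folds of 14.3 and 6.83, with a region 786 bp wide in air and 359 bp in ethylene. The air summits lay 462 bp outside RABC2A, 711 bp outside RAD9, 867 bp outside SMR4 and 288 bp outside PHB2. AT5G38220, AT1G76630, AT1G65820, AT5G04250 and AT1G21920 completed the 10 kept regions of highest air fold, with air folds from 14.3 to 17.9. All 10 stayed high in the ethylene set, where between 0.175% and 9.85% of the regions had a higher fold.

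Some lost regions were strong in air. The highest was in VEL1 (AT4G30200), which encodes a PHD finger protein like the vernalization factor VIN3, at 14790202 to 14790638 of chromosome 4. Its fold in air was 11.6, only 0.675% of air regions had a higher one, and it ranked 312th by −log10 p. The next was 403 bp outside LBD38 (AT3G49940), a LOB domain transcription factor gene of nitrogen responses, with a fold of 11.1. LBD38 kept other ENAP1 signal: 4 regions lay around it in air, and 1 ethylene region of 1131 bp overlapped 2 of the weaker ones, as the maps of single loci show. MYB70 (AT2G23290), a MYB transcription factor gene, had an air fold of 10.1, and RTFL8 (AT2G39705), which encodes a small growth peptide of the ROTUNDIFOLIA-like family, had 9.88. Their summits lay 563 and 148 bp outside the genes. FZR2 (AT4G22910), also called CCS52A1, an activator of the anaphase-promoting complex in endoreduplication, had an air fold of 9.39. ACT2 (AT3G18780), a vegetative actin gene, had 9.22, GAD (AT5G17330), a glutamate decarboxylase gene, had 9.13, and PIA1 (AT2G20630), a protein phosphatase 2C gene, had 9.12. AT1G60010 and AT1G45015 had 9.30 and 8.74. Except at LBD38 and AT1G60010, these genes had no other region in ethylene. All 10 were lost too when equal numbers of regions were compared, but that comparison kept every ethylene region, so this outcome was fixed in advance. The rules that asked for a larger overlap could not change it either. The rule of summits within 100 bp could have changed it, and all 10 were lost under that rule as well.

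Gained regions were weaker, and their highest fold, within the ethylene set, was 5.33. That region, at 5814729 to 5815051 of chromosome 3, was 1728 bp from the nearest protein-coding gene. The next lay 908 bp from AT2G18110, with a fold of 5.18. The UV-B signalling repressor gene RUP1 (AT5G52250) held one as well, and this region of 664 bp at 21217436 to 21218099 of chromosome 5 had a fold of 4.92. EIN3 (AT3G20770) had a gained region of 1922 bp deep in the gene, with its summit 1367 bp from the nearer gene edge and a fold of 4.86. About 11 kb farther on lay the gained region in AT3G20800, with a fold of 4.82. UBP23 (AT5G57990), a ubiquitin-specific protease gene, and PME3 (AT3G14310), a pectin methylesterase gene, had gained regions with folds of 4.72 and 4.58 beside regions they had in air. The UBP23 summit lay 569 bp outside the gene. Between 15.5% and 27.5% of ethylene regions had a higher fold than these 10. At equal numbers the highest unmatched ethylene regions were others, in AT5G24990 (fold 7.08), in the caffeoyl shikimate esterase gene LysoPL2 of lignin synthesis (AT1G52760, 5.79) and in AT5G64640 (5.55), and all 3 lay in air regions of lower rank.

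Where both sets had a region, its position hardly moved. Taking pairs of regions that were each other's largest overlap gave 4512 pairs. The summit in ethylene lay a median of 16 bp from that in air, with quartiles of 7 and 31 bp, and the median signed shift was 0 bp. Within 50 bp lay 89.4% of the summits (interval 88.5 to 90.3), and 100 pairs (2.22%) differed by more than 200 bp. From the weakest to the strongest quartile group of pairs by air −log10 p the median distance was 23, 19, 16 and 12 bp. Widths were slightly smaller in ethylene, with medians of 347 bp in air and 330 bp in ethylene and a median difference of −15 bp (quartiles −73.25 and 40). The ethylene region was narrower in 2582 pairs (57.2%), wider in 1913 (42.4%) and equal in 17. The authors' threshold and the strength of a library both set the width of a called region, and their part in this difference was not tested.

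**Figure D2:**
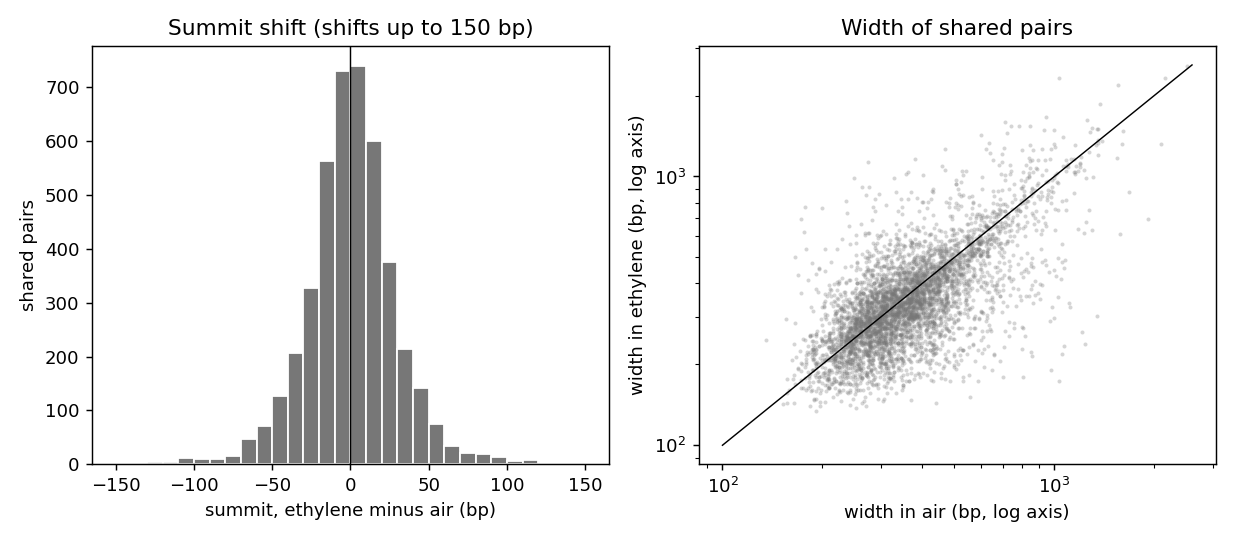
Left, number of shared pairs (vertical axis) by summit position in ethylene minus air in bp (horizontal axis), for the 4379 of 4512 pairs with a shift of up to 150 bp; right, width of each pair in air and in ethylene in bp on log axes with the line of equality, 1 pair wider than 3000 bp left out. Shifts centre on 0 bp, and points lie on both sides of the line, with 57.2% narrower in ethylene.

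A few pairs changed shape. In SLP2 (AT4G34980), a subtilisin-like protease gene, regions of 1353 and 1366 bp covered nearly the same stretch, but the summit lay at 16656947 of chromosome 4 in air and at 16658012 in ethylene, 1065 bp apart. In AT4G32290 the ethylene summit lay 831 bp from the air summit, and in AT1G31243 783 bp. UNE1 (AT1G29300) showed the largest narrowing: a region of 1913 bp in air was 695 bp in ethylene with the summit at the same base, 10248074 of chromosome 1. BXL1 (AT5G49360), a beta-xylosidase gene acting on cell wall polymers, went from 1346 to 302 bp, and the transcription factor gene WRKY15 (AT2G23320) from 1581 to 611 bp. Apart from a stretch of chromosome 2 described below, the largest widening was in AT1G01300, from 710 to 1592 bp, followed by PG1 (AT1G60390), from 738 to 1541 bp, and UGT71B6 (AT3G21780), an abscisic acid glucosyltransferase gene, from 249 to 991 bp. In all, 58 ethylene regions overlapped 2 or more air regions and 24 air regions overlapped 2 ethylene regions, in some cases only in part. EIN2 (AT5G03280), the gibberellin response repressor gene RGL2 (AT3G03450), the transcription factor gene ERF9 (AT5G44210) and the abscisic acid receptor gene PYR1 (AT4G17870) were among the genes at which 1 ethylene region spanned 2 air regions, and at AT5G40390 it spanned 3.

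**Figure D3:**
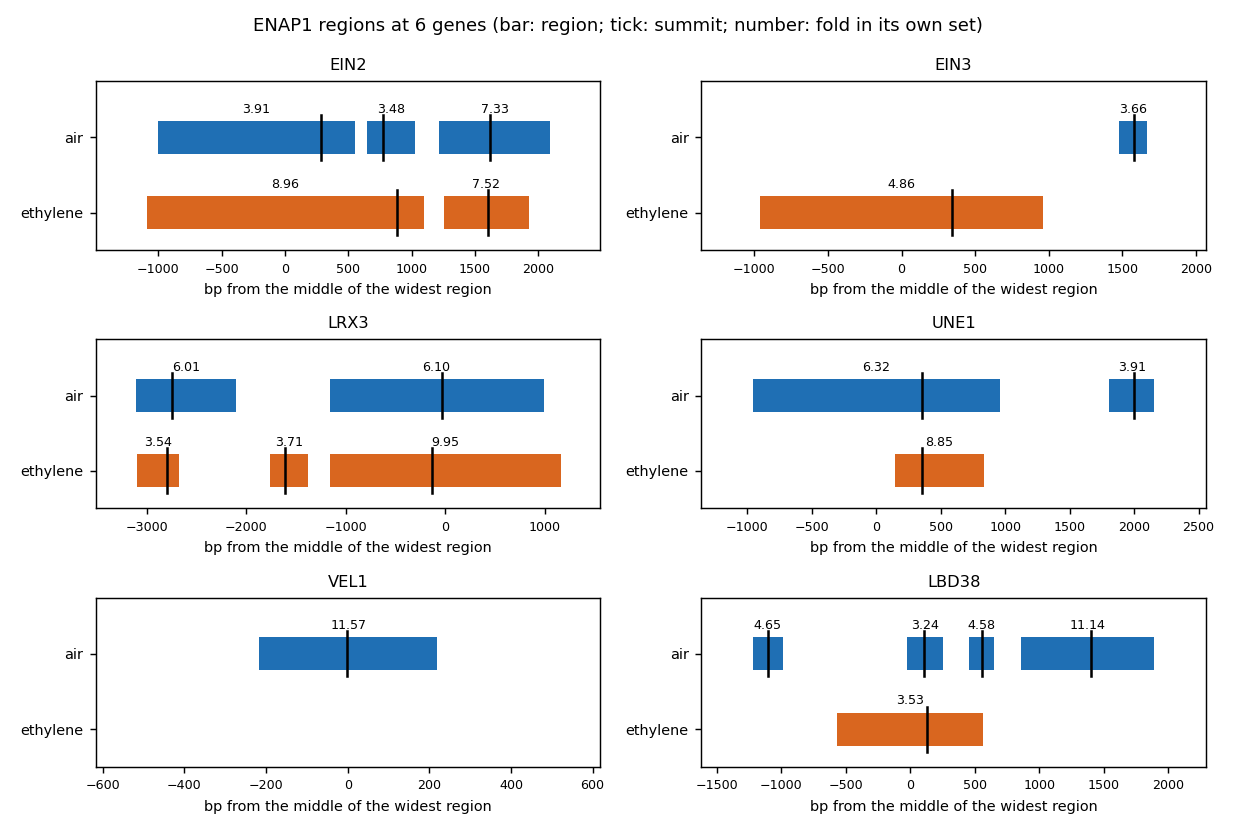
ENAP1 regions at 6 genes in air (blue) and ethylene (orange); bars are regions, ticks are summits, numbers are folds within the set, and the horizontal axis is bp from the middle of the widest region shown. EIN2 has 3 air and 2 ethylene regions, the single EIN3 regions of the 2 sets do not overlap, LRX3 keeps its wide region, UNE1 narrows around 1 summit, VEL1 has an air region alone and LBD38 loses its strongest air region of fold 11.1.

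Kept and lost regions differed in place. Summits fell within protein-coding genes in 79.2% of kept regions (interval 78.0 to 80.3) and in 57.9% of lost regions (56.2 to 59.6), and they were more than 1000 bp from any gene in 3.57% and 10.2%. Seen the other way, 65.5% of air regions inside genes were kept, 42.9% of those within 1000 bp of a gene and 32.8% of those farther away. Regions outside genes were also weaker by −log10 p, and the part of strength in this difference was not tested. Within quartile groups of −log10 p the shares were as follows. In the lowest group 25.2% of regions inside genes were kept, 15.3% of those within 1000 bp and 12.1% of those farther away, and in the second group 48.4%, 30.6% and 16.6%. In the third group the shares were 76.8%, 64.4% and 57.6%. In the highest group they were 97.6%, 95.02% and 95.7%. The intervals of the 2 classes outside genes overlap in every group but the second, and all intervals of the highest group overlap. Of the 497 air regions farther than 1000 bp from genes, 163 were kept.

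**Figure D4:**
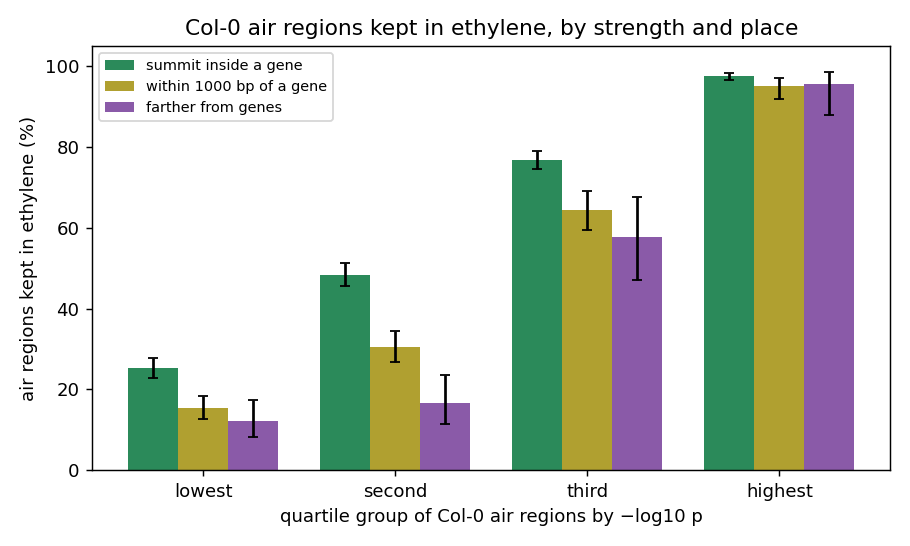
Share of Col-0 air regions kept in ethylene (vertical axis, percent), by quartile group of −log10 p (horizontal axis) and by the place of the summit (colours); bars on the columns are Wilson 95% intervals. In the lowest group 25.2% of regions inside genes were kept against 15.3% and 12.1% outside, and in the highest group the 3 shares lay between 95.02% and 97.6%.

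Depth inside a gene went with the share found in the other set in different ways. Of air summits in the 100 bp just inside a gene edge, 64.4% were kept (interval 62.4 to 66.4), against 68.6% of those more than 500 bp inside (64.8 to 72.1), intervals that overlap. Of ethylene summits in the same 100 bp, 92.9% fell in an air region (91.5 to 94.1), against 82.8% of those more than 500 bp inside (79.2 to 85.9). The gained region in EIN3 is one of the 86 gained ones at such a depth. Gene strand was not used here, so these edges are starts and ends alike. The share of kept regions was similar on the 5 chromosomes, from 56.4% to 59.5%.

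One stretch of chromosome 2 stood apart. Between 3253599 and 3502173 the ethylene set had 36 regions, 35 of them gained, and the air set 1. They covered 219 kb, 88.1% of the stretch and 10.4% of all bases in ethylene regions, with widths of up to 23126 bp, while the widest air region anywhere was 2517 bp. Their folds, from 1.65 to 1.80, were the lowest of the set, and none of them overlapped a region of either ein2 set. Near the centromere chromosome 2 of Arabidopsis carries a large insertion of mitochondrial DNA, as general background, and 86 protein-coding genes of the gene table lie in this stretch, among them AT2G07739. How many copies of mitochondrial DNA each library held was not tested. Without the stretch, gained regions numbered 570 and gained genes 612.

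At the level of genes, a gene was counted as having a region if one overlapped it or the 1000 bp on either side, so a region can count for 2 neighbours. A region counted for a gene can lie outside it, in some cases with its summit in a neighbouring gene. For a gene with several regions the fold given is the highest, so the air and ethylene folds of a gene can come from regions that do not overlap. Air and ethylene folds given side by side are each read within their own set, so their difference or likeness measures no change. Of 27444 protein-coding genes, 9747 (35.5%) had a region in air and 7196 (26.2%) in ethylene. Of the genes with an air region, 66.7% also had an ethylene region (6501 genes, interval 65.8 to 67.6), 3246 had lost it and 695 had one in ethylene alone. At equal numbers of regions 81.4% of 7016 genes were kept. These 2 percentages are the background for each group of genes below. Genes with 1 air region were kept in 63.0% of cases, those with 2 in 82.6% and those with 3 or more in 91.4%. In 81 of the 6501 kept genes the ethylene region overlapped no air region of the gene, so that the gene was kept but the position was not. Conversely, 30 of the 695 gained genes and 45 of the 3246 lost ones had a region that did overlap one of the other set, which reached into the window in 1 set alone. The lists and families below were chosen with results of these data known, so their counts describe the genes and carry no test.

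The ethylene signalling list has 16 genes, 12 of which carried ENAP1 in air. ENAP1 was found again in ethylene at 6 of the 12, where the share over all genes was 66.7%. The receptor genes divided. ETR2, whose transcript is itself induced by ethylene, had the highest air fold of the list, in a region from 8254444 to 8254861 on chromosome 3. Its fold was 12.8 in air and 6.81 in ethylene. ETR1 had 8.57 in air, which 3.99% of air regions exceeded, and 3.46 in ethylene, which 62.4% of ethylene regions exceeded. ERS1, ERS2 and EIN4 had air folds of 4.30, 4.17 and 5.52 and no ethylene region. CTR1, the kinase below the receptors, was lost from 3.94. EIN2 had 3 air regions and the highest ethylene fold of the list. An ethylene region of 2189 bp with a fold of 8.96, exceeded by 0.681% of ethylene regions, covered 2 air regions with folds of 3.91 and 3.48, exceeded by 64.7% and 79.2% of air regions.

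The nuclear factors of the pathway differed as well. EIL1, the closest relative of EIN3, had air regions with a fold of up to 6.08 and none in ethylene. EIN3 had a narrow air region of 189 bp with its summit 130 bp inside the gene and a fold of 3.66, which no ethylene region overlapped, and the ethylene region of 1922 bp lay elsewhere in the gene, with the 2 summits at 7263254 and 7262017. EBF1, the F-box gene whose product removes EIN3, was lost from an air fold of 3.73. EIN5 (XRN4), an exonuclease gene, was kept with 10.5 in air and 3.75 in ethylene, and ETP2, an F-box gene whose product removes EIN2, with 5.07 and 4.39 in regions 874 and 912 bp outside the gene. At equal numbers 5 of 8 genes of this list were kept, and EIN3 was then gained.

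Few genes of ethylene synthesis or known to respond to ethylene had regions in both sets, and the lists are short. Of 5 synthesis genes with an air region, only ACS2, an ACC synthase gene, had a region in ethylene, and its ethylene region did not overlap the air one. ACS5, the ACC oxidase gene ACO4, and ETO1 and EOL2, whose products mark ACC synthases for removal, had air folds from 2.63 to 5.69 and no ethylene region. Only 1 of these 5 had an air region at equal numbers, EOL2, so most were weak, and EOL2 was then lost. Of 10 ethylene-induced genes with an air region, ETR2 and ERF5 were kept. The 8 lost include ERS1 and ERS2, and ERS1, ERS2 and ETR2 are counted in the signalling list too. The DNA-binding factor genes EDF1, EDF3 and EDF4 were lost from 5.11, 4.30 and 3.38, the organ growth genes ARGOS and ARL from 4.19 and 7.14, and the transcription factor gene RAP2.2 from 4.35. At equal numbers 2 of 8 were kept, against 81.4% of all genes.

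The list of triple response and hypocotyl genes, which covers dark growth and light signalling, has 13 members, and the 6 with an air region all had one in ethylene. They were COP1, the ubiquitin ligase gene of darkness, with folds of 5.70 in air and 5.63 in ethylene, the signalosome subunit gene COP8 with 9.59 and 4.63, HY5, a transcription factor gene of light growth, with 5.76 and 4.19, the phytochrome gene PHYA with 5.29 and 3.74, and PIF5 with 6.25 and 4.84. PIF4, like PIF5 a bHLH factor gene that promotes growth, was kept by a region that did not overlap its air region, with folds of 3.67 and 3.39. Of 11 histone acetylation genes with an air region 9 were kept. They were the acetyltransferase genes GCN5, HAG2, HAG3, HAM1, HAM2, HAC1, HAC5 and HAF1 and the deacetylase gene HDA19. HDA19 was kept only by an ethylene region 142 bp outside the gene. That region did not overlap its air region of highest fold, which overlapped the gene. At equal numbers 8 of 9 genes were kept, and HDA19 was then counted as gained. GCN5 had 6.42 in air and 4.75 in ethylene, and HAF1 6.90 and 7.003 in regions 80 and 58 bp outside the gene. The deacetylase genes HDA9 and HDA6 were lost from 6.52 and 3.69.

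Circadian clock genes held 2 gains by the counting rule, of unlike kind. PRR9, a pseudo-response regulator gene of the morning, had no air region and an ethylene region 67 bp outside the gene with a fold of 3.26. PRR5, of the same family, was counted as gained only because an ethylene region in the neighbouring gene AT5G24460 reached the edge of its 1000 bp window, and an air region with a fold of 5.32 and the same place in AT5G24460 did not. TOC1 and PRR7 of the same family were kept, TOC1 with 10.8 in air and 6.55 in ethylene. ZTL, which encodes a blue light receptor that removes TOC1, was kept with 6.07 in air, exceeded by 16.99% of air regions, and 8.78 in ethylene, exceeded by 0.818% of ethylene regions. GI and ELF4 were kept, and CCA1 and ELF3 were lost from 3.35 and 5.27. In all 5 of 7 clock genes with an air region were kept.

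Of 13 jasmonate genes with an air region 10 were kept, and at equal numbers 8 of 11, shares on either side of the 66.7% and 81.4% of all genes. The transcription factor genes MYC2, MYC3 and MYC4 had folds of 5.71, 8.38 and 9.29 in air and 5.65, 7.05 and 4.54 in ethylene. AOS, a jasmonate synthesis gene, had 8.15 and 5.96, in regions that did not overlap each other. Of the repressor genes, JAZ2 was the strongest, with 8.57 and 5.87, JAZ1 was kept by an ethylene region apart from its air region, and JAZ4, JAZ8 and JAZ11 were lost from 5.66, 5.24 and 5.17. The JAZ2 regions lay 327 and 363 bp outside the gene, and the JAZ8 region 188 bp outside.

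The other 5 hormone lists had few genes with an air region. Among gibberellin genes, 3 of 6 were kept, the repressor genes RGL1, RGL2 and RGL3, while the repressor gene RGA and the receptor genes GID1A and GID1B were lost from 3.99, 4.74 and 5.57, and the synthesis gene GA20OX2 was gained with 3.41. Of 7 brassinosteroid genes, BRI1, the receptor gene, was kept, as were the synthesis genes CPD and DET2. BRI1 had 9.25 in air, exceeded by 2.64% of air regions, and 9.22 in ethylene, exceeded by 0.487% of ethylene regions. Its regions lay 826 and 910 bp outside the gene. The co-receptor gene BAK1, the kinase gene BIN2, the transcription factor gene BES1 and the synthesis gene DWF4 were lost from 5.03, 4.47, 5.18 and 4.45. Of 7 cytokinin genes 3 response regulator genes, ARR4, ARR10 and ARR15, were kept, and the receptor genes AHK3 and AHK4 and the regulators ARR1 and ARR12 were lost from folds of 3.25 to 4.51. At equal numbers 3 of 3 cytokinin, 2 of 2 auxin, 1 of 1 abscisic acid, 3 of 5 gibberellin and 3 of 6 brassinosteroid genes were kept. Of 4 abscisic acid genes 1 was kept, the receptor gene PYR1, the kinase gene OST1, the phosphatase gene ABI1 and the transcription factor gene ABI5 were lost, and the phosphatase gene ABI2 was gained with 3.40 in a region 796 bp outside the gene. Of 4 auxin genes, the synthesis gene WEI2 and the receptor gene TIR1 were kept. The synthesis gene TAA1 and the uptake carrier gene AUX1 were lost from 4.35 and 4.00, in regions 796 and 139 bp outside the genes.

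Of 10 genes of cellulose synthesis and wall growth with an air region 4 were kept, and at equal numbers 4 of 9. The leucine-rich repeat extensin genes LRX3, LRX4 and LRX5 and COB, which encodes an anchored wall protein needed for oriented growth, were kept. LRX3 had a region of 2152 bp with a fold of 6.10 in air and one of 2321 bp with 9.95 in ethylene, where 0.234% of regions were higher. LRX5 held the widest ethylene region outside the chromosome 2 stretch, 2568 bp, with a fold of 5.99. CESA1, CESA3 and CESA6, which encode cellulose synthase subunits of the primary wall, were lost from 3.54, 5.04 and 3.92, as were the endoglucanase gene KOR1 from 5.35, the receptor kinase gene FER from 4.65 and the xyloglucan enzyme gene XTH4 from 4.13 in a region 988 bp outside the gene. CESA2, CESA5, CESA9 and LRX1 had no region in either set.

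**Figure D5:**
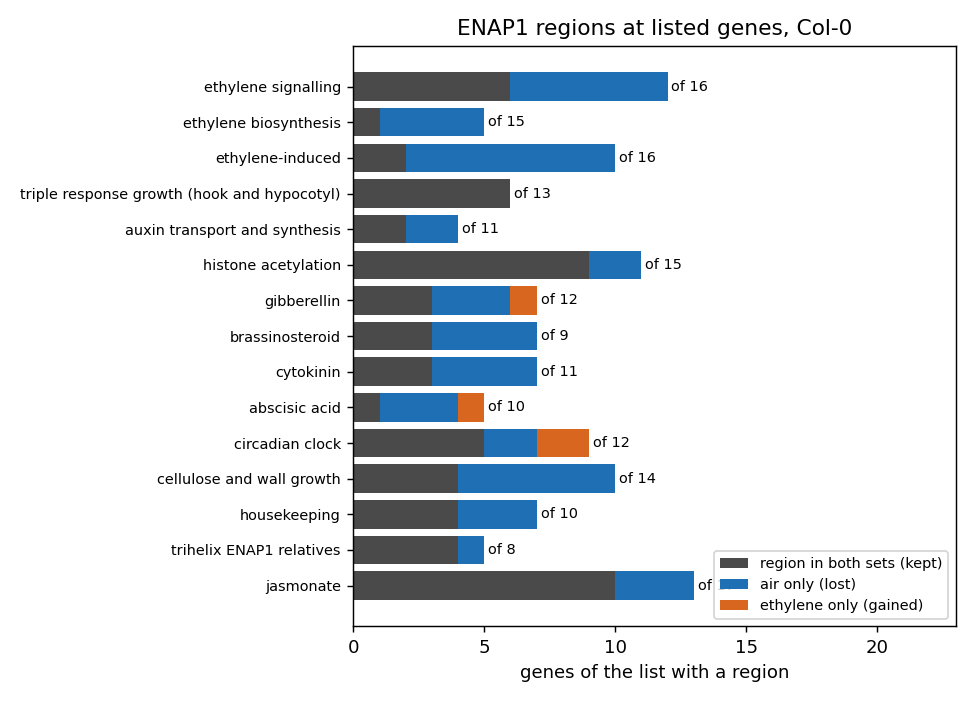
Number of genes (horizontal axis) with an ENAP1 region in both sets (grey), in air alone (blue) and in ethylene alone (orange), for each of 15 lists of genes (vertical axis); the number after a bar is the length of the list. Of genes with an air region, 6 of 6 were kept in the triple response list, 10 of 13 in the jasmonate list, 2 of 10 in the ethylene-induced list and 1 of 5 in the ethylene synthesis list; the share over all genes was 66.7%.

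Genes often used as references in expression work were kept in 4 of 7 cases, near the share of all genes, and in 4 of 6 at equal numbers. ACT2, ACT7 and PP2AA3 had air folds of 9.22, 4.05 and 4.48 and no ethylene region, while ACT8, UBQ10, GAPC1 and TIP41 kept theirs. Trihelix genes related to ENAP1 were kept in 4 of 5 cases. ENAP1 itself (AT3G11100) had 6.78 in air and 5.87 in ethylene, ASIL1 7.97 and 7.18 and GT-2 6.19 and 4.76, and GTL1 was lost from 3.91. The GT-2 regions lay 611 and 639 bp outside the gene. ASIL2 had 6.02 in air, in a region 647 bp outside the gene, and 8.54 in ethylene, in another region that overlapped the gene. Whether reads at AT3G11100 came in part from a tagged transgene was not tested.

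Gene families found by symbol lay on both sides of the background, most of them below it. Over the 44 lists and families together, 58.3% of 599 distinct members with an air region were kept (349 genes), 250 were lost and 41 gained. The share over all genes was 66.7%. At equal numbers 73.2% of members were kept, against 81.4% of all genes. MADS box genes were kept in 8 of 20 cases (40.0%) and at equal numbers in 7 of 16. The floral repressor gene FLC was lost from 4.65 and its relatives MAF1, MAF3, MAF4 and MAF5 from 3.92, 3.64, 4.85 and 4.85, the last 2 through the same air region, 859 bp from MAF5. MAF2 (AGL31), in the same cluster on chromosome 5, was kept with 7.71 in air and 3.77 in ethylene. SVP, another floral repressor gene, was lost from 3.79, and AGL19, a floral activator gene, was kept with 9.43 and 6.24. Of the Dof genes, CDF1, CDF2 and CDF3, repressors of the flowering gene CONSTANS, were all lost, CDF3 from 8.72.

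Calcium sensor and kinase genes were kept in 16 of 37 cases (43.2%) and at equal numbers in 14 of 21. The kinase genes CPK30 and CPK5 had 8.43 and 7.33 in air and 5.83 and 4.35 in ethylene. CPK21, CPK1 and CPK28 were lost from 5.58, 5.10 and 4.70. Tubulin and actin genes were kept in 7 of 16 cases. ACT8 kept a region with 6.69 in air and 4.22 in ethylene, ACT1 was lost from 5.74, and ACT3 was gained with 3.20. AUX/IAA genes, repressors of auxin response, were kept in 6 of 13 cases, among them IAA9 with 7.98 and 3.77, while IAA19 and IAA13 were lost from 5.96 and 5.64.

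Of the transcription factor families described next, MYB genes lay above the background of 66.7%. WRKY genes (62.1%), ERF and RAP2 genes (58.1%) and NAC genes (55.6%) lay below it. At equal numbers 14 of 16 MYB, 18 of 23 WRKY, 15 of 21 ERF and RAP2 and 7 of 9 NAC genes were kept. The share over all genes was then 81.4%. With so few genes in a family, a few genes make these differences, which were not tested. MYB genes were kept in 19 of 26 cases (73.1%), and MYB102 had 9.90 in air and 12.1 in ethylene, exceeded by 1.81% of air and 0.117% of ethylene regions, in regions 547 and 854 bp outside the gene. MYB59 was gained with 4.37 in a region 654 bp outside. WRKY genes were kept in 18 of 29 cases, and WRKY33, a regulator of pathogen defence, was lost from 3.82. ERF and RAP2 genes were kept in 18 of 31 cases. ERF-1, ERF5, ERF6 and ERF104 were kept, with air folds of 7.32, 5.19, 4.73 and 4.78 and ethylene folds of 6.28, 4.49, 5.89 and 5.18, and their relative ERF13 was lost from 3.28. Of the repressor genes, ERF3, ERF7 and ERF8 were lost from 3.28, 5.10 and 3.83, and ERF4, ERF9, ERF10 and ERF12 were kept. The low-oxygen factor genes RAP2.12 and ERF71 were kept, and RAP2.2 and ERF73 were lost. NAC genes were kept in 10 of 18 cases and 4 were gained, NAC082, NAC089, NAC096 and NAC102.

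Cytochrome P450 genes were kept in 33 of 48 cases (68.8%), with 8 gains. CYP79B2 and CYP79B3, which turn tryptophan into a precursor of glucosinolates and auxin, were kept with air folds of 4.08 and 4.05. Of the abscisic acid breakdown genes, CYP707A1 was kept with 5.47 in air and 2.74 in ethylene and CYP707A3 was lost from 3.28. Of the jasmonate breakdown genes, CYP94B3 was lost from 3.85 and CYP94C1 was gained with 3.58. CYP90D1, a brassinosteroid synthesis gene, was gained with 4.01. MAP kinase cascade genes were kept in 17 of 27 cases, among them MPK3, MPK6, MEKK1 and MKK9. Rab and other small GTPase genes were kept in 16 of 29 cases. Of 5 cell cycle inhibitor genes of the KRP and SMR types found by symbol and with an air region, 4 were kept, SIM with 10.9 in air and 4.83 in ethylene from regions outside the gene, and ICK1 was lost from 3.97. SMR4 (AT5G02220), described above among the strongest kept regions, goes by its locus name in the gene table and is not among these 5.

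The ein2 mutant, which does not respond to ethylene, gave a further reading of the same regions. Of kept regions, 59.1% overlapped a region of ein2 air and 63.0% one of ein2 ethylene. Of lost regions, 14.9% overlapped ein2 air (interval 13.7 to 16.1) and 35.4% ein2 ethylene (33.8 to 37.1), that is 1164 regions seen in ein2 but not in Col-0 after ethylene. Of the 605 gained regions 8 overlapped ein2 air and 63 (10.4%) ein2 ethylene. The ein2 sets held 3252 and 4696 regions and have their own thresholds, and their difference was not tested.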

How the data were processed

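ENAP1 ChIP-seq peak sets of Col-0 seedlings in air and in ethylene were compared. Per the submitters' processing notes, the tools were BWA for alignment and MACS2 (2.1.0.20150603) for peak calling, and the build was TAIR10. No calling threshold is stated in the sources used here. The deposited files give for each peak a start, end and summit offset in bp, a fold enrichment (a ratio computed by the authors), and −log10 p and −log10 q values as the authors' caller wrote them. Peak names ran up to 18877 in air and 12046 in ethylene, of which the files hold 41.6% and 42.6%, so each is a subset of a longer list, selected by a rule that no label states. Of 6 files, the 2 Col-0 sets are the subject, the 2 ein2 sets were used for overlap, and 2 named in no label were not used.

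Regions were shared if they overlapped by 1 bp or more, and pairs were regions that were each other's largest overlap. The comparison was repeated with 5137 regions of highest −log10 p from each set. Gene spans were read from a RefSeq table (assembly TAIR10.1). Its build name is not the one of the peaks, and none of its coordinates are printed. Summits within 300 bp of a gene edge were 70.7% and 72.1% as deposited and at most 26.3% when moved by 2000 or 5000 bp. A gene had a region if one overlapped its span with 1000 bp on either side. The table used gives neither strand nor exons and no genome sequence was used, so distances to gene starts, strand-wise shifts, promoter motifs and sequences were not run, other than first planned.

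Genes were named as those of the 10 regions of highest fold among kept, lost and gained regions, the 5 highest at equal numbers, the 5 pairs with the largest summit shift and width difference each way, and members of 15 lists (by locus) and 29 families (by symbol). Each region was assigned to the gene around its summit, or else to the nearest one up to 1000 bp away. Members and lists were chosen with earlier results of these data known. A jasmonate list was added and symbol patterns that caught unrelated genes were narrowed after seeing the data, and the loci mapped were chosen then too. The overlap script was checked on simulated regions. Python 3.11.15, pandas 2.3.3, numpy 2.4.6, scipy 1.17.1 and matplotlib 3.10.9 were used.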

Additional observations from a re-analysis of the deposited data

How the results depend on the processing

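Each summary value was recomputed under other overlap rules, thresholds, pairings and gene windows. Of 121 recomputed values, 79 stayed within the limits set and 42 moved. Those that stayed include the values of a setting that repeated the main comparison unchanged, so they could not move. A reversal was defined only for the median width difference, which stayed negative throughout. No paired analysis was possible because each condition has 1 peak set for both replicates, and for the same reason no replicate could be left out. Air regions kept, 58.2%, were 76.1% at equal numbers, 51.4% at a fold of at least 3 in both sets, 54.0% when 50% of both regions had to overlap, 49.97% at a common −log10 q minimum, 55.5% with summits within 100 bp and 60.0% for the regions above the median −log10 p of each set. Ethylene regions found in air, 88.2%, were 75.9%, 86.9%, 82.5%, 92.9%, 84.9% and 91.5% in the same order. Lost regions numbered 1227 at equal numbers and 1570 above the medians, and gained regions 1238 and 217, with 295 at the common minimum. Genes kept numbered 4138 by the gene of the summit and 3634 above the medians, genes lost 1303 at equal numbers and 2023 above the medians, and genes gained 1483, 387 at the common minimum and 296 above the medians. The share of list and family members kept, 58.3%, was 73.2% at equal numbers, 51.7% at a fold of 3, 52.8% by the gene of the summit, 53.3% with no flank and 47.7% at the common minimum. Over all genes the share was 66.7%, and 81.4% at equal numbers, and it fell below 66.7% in the other settings too. All genes kept and lost numbered 5432 and 3765 at a fold of 3 and 4138 and 2513 by the gene of the summit. They numbered 4474 and 2433 with no flank and 5695 and 4052 at the common minimum. Summits inside genes were 80.4%, 80.8%, 81.1% and 83.6% of kept regions (equal numbers, fold of 3, common minimum, above the medians), 62.3%, 59.6% and 71.7% of lost regions (equal numbers, summits within 100 bp, above the medians) and 68.9%, 67.1% and 77.9% of gained regions (fold of 3, common minimum, above the medians), so kept stayed above lost in each. The median summit distance was 14 bp above the medians, and the median width difference was −10 bp at the common minimum and −3 bp above the medians. The cause of these moves was not tested, beyond the smaller number of regions that the thresholds leave. Of 267 recomputed calls of 30 named regions, 266 stayed, and the PHB2 region was no longer shared when 50% of both regions had to overlap. Lost and gained calls could not change where a setting only removed regions or asked for a larger overlap. No call could change in the setting that repeated the main comparison, so much of this agreement was fixed in advance. Depth is unknown, so how many of the lost and gained regions lie just under the other set's threshold could not be measured.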

Other observations

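On chromosome 3, EIN3 and AT3G20800 both had gained regions, and UCNL (AT3G20830), a kinase gene a few genes on, had an ethylene region of 1537 bp with a fold of 7.54 that overlapped 2 air regions of 1506 bp together. UCN (AT1G51170), its relative on chromosome 1, likewise had an ethylene region of 1262 bp that overlapped, in part, 2 air regions of 1387 bp together. The opposite pattern, 1 air region overlapping 2 ethylene regions, occurred at the ubiquitin ligase gene ATL2 (AT3G16720), the transcription factor genes NAC053 (AT3G10500) and WRKY11 (AT4G31550), and CAS1 (AT2G07050), a sterol synthesis gene. These genes were chosen after their values were seen, and no difference was tested.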
